A study of Arabidopsis thaliana with 14 samples.

Results

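The H3K36me3 regions that lie in the longest genes of Arabidopsis thaliana are described here. H3K36me3 is histone H3 trimethylated at lysine 36, and it was mapped by ChIP-seq, in which chromatin fragments bound by an antibody are sequenced. A region was taken when its centre fell in a nuclear protein-coding gene of 10 kb or more in the RefSeq annotation of TAIR10.1, outside the last 500 bp of that gene. By this rule 1906 of the 52432 nuclear regions of the 25 °C list and 1916 of the 50167 nuclear regions of the 16 °C list were members, and the complete lists, organelles included, held 52588 and 50290 regions. The genes numbered 122 of 27444, and the rule used gene length and the place of the region but no measured height or width. The groups were H3K36me3 at 25 °C (4 samples), H3K36me3 at 16 °C (4 samples), total H3 at 25 °C (3 samples) and total H3 at 16 °C (3 samples). All samples were wild-type Col-0 plants, with no transgene named in the labels, and the tissue was the shoot apical meristem with early leaves, 0.5 g per sample. Every plant had grown for 5 weeks at 16 °C with 8 h of light and 16 h of dark. The 25 °C plants were collected 1 day after a move to 25 °C, and the 16 °C plants without a move.

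H3K36me3 is laid down in the bodies of genes while RNA polymerase II transcribes them, in plants chiefly by the methyltransferase SDG8, and in Arabidopsis it is known to lie towards the 5′ part of genes. The mark is read by MRG proteins and has been linked to flowering time and to the choice of splice sites. A long gene holds a long row of nucleosomes, so it shows along its own length where the mark begins, how far it runs and where it ends. The 122 genes were 10095 to 27265 bp long, with a median of 11762.5 bp and a median of 34 exons (3 to 79). Chromosomes 1 to 5 held 36, 26, 19, 18 and 23 of them. Of the 122 genes, 42 overlapped another annotated gene, so that regions there may belong to either gene, and 80 did not.

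The sequences of 4 members are shown because these regions mark the extremes of width in each list and of change between the lists, among genes that overlap no other gene and away from UTRs. They are from the TAIR10.1 genome of RefSeq, written 5′ to 3′ on the strand of the gene, with bases that are coding in any transcript in capitals and introns in lower case. The widest 25 °C member whose window could be shown was 3380 bp in AT3G24880, a Helicase/SANT-associated DNA binding protein, and its central 300 bases lie at chr3:9094741-9095040 (minus strand, 227 coding bases, 42.0% GC). The widest 16 °C member was 1850 bp in AT1G02080, annotated as a transcription regulator, and its central 300 bases lie at chr1:380786-381085 (plus strand, 153 coding bases). AT2G36810, an ARM repeat protein, held the pair of regions that gained most width, 1540 bp at 25 °C against 270 bp at 16 °C, and the 270 bases of the 16 °C region at chr2:15435311-15435580 (minus strand, 108 coding bases) are given. ATM, a kinase of the DNA damage response, held the pair that lost most, 70 bp at 25 °C against 800 bp at 16 °C, and the 70 bases of the 25 °C region at chr3:17813621-17813690 (plus strand) are intronic, with 25.7% GC.
AT3G24880: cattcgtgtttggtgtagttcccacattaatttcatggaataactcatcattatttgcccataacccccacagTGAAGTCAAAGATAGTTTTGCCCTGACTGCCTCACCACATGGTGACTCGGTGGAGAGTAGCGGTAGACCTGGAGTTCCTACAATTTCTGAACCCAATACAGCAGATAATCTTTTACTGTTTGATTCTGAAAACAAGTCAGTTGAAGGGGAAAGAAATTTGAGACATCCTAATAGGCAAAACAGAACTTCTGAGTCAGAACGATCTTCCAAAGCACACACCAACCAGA
AT1G02080: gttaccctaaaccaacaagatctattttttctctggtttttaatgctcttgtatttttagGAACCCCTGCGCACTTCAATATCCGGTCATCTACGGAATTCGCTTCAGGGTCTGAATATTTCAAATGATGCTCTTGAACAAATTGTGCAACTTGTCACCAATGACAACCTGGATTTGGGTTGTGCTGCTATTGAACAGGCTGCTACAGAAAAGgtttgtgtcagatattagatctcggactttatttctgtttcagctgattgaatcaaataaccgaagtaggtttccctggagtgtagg
AT2G36810: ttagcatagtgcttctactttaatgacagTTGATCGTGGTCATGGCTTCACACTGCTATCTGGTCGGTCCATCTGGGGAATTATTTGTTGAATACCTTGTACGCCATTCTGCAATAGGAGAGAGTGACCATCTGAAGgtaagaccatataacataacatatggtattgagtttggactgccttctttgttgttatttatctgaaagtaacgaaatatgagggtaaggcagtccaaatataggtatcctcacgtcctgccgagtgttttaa
ATM: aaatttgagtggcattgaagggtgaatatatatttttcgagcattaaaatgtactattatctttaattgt

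Each temperature has 1 list of regions in which the authors pooled the replicates. No value per sample was used here, the read depth behind a region is unknown, and no difference between the temperatures has a replicate check. Intervals below are 95% intervals (Wilson for shares, binomial order statistics for medians) that cover counting over genes or regions only, and genes and regions are not replicates. The label of H3K36me3 25 °C replicate A names the H3 antibody while its title names H3K36me3, and its part in the pooled 25 °C list was not tested. Chloroplast regions held 26.4% of the signal implied by the 25 °C list and 35.2% of that implied by the 16 °C list, which left 71.8% and 62.8% for the nucleus, a ratio of 1.14. Among marker genes, 2 of 6 of the shoot meristem, 3 of 4 of green shoots and 0 of 6 of roots held a region at 25 °C, against 3, 3 and 1 at 16 °C. The defining meristem gene STM held no region at 25 °C and 1 at 16 °C, WUS held 1 and 0, and CLV3 held none in either list.

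Nearly all long genes held a region at both temperatures, and a region of any width was enough to count. The lists had about the same number of regions in these genes, and in most genes more of the length lay inside regions at 25 °C. A region was centred in 121 of 122 genes at 25 °C (99.2%, 95.5 to 99.9%) and in 118 at 16 °C (96.7%, 91.9 to 98.7%). Over all 27444 genes this background was 54.9% at 25 °C and 51.8% at 16 °C, and in genes of 5 to 10 kb it was 90.8% and 89.3%, so the share was higher in longer genes across the genome. The density was 12.5 regions per 10 kb of gene at 25 °C and 12.6 at 16 °C, against 9.80 and 9.82 in genes of 5 to 10 kb. Cover, the percent of the gene without its last 500 bp that lies inside regions, had a median of 53.1% at 25 °C (45.7 to 55.6%) and 30.1% at 16 °C (26.5 to 34.9%). In genes of 5 to 10 kb the medians were 39.6% and 26.2%, and in genes of 2 to 5 kb 28.6% and 18.1%. The long genes make up 1.28% of the nuclear genome by these bodies, and their members made up 4.43% of the nuclear covered width at 25 °C and 3.81% at 16 °C.

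**Figure D1:**
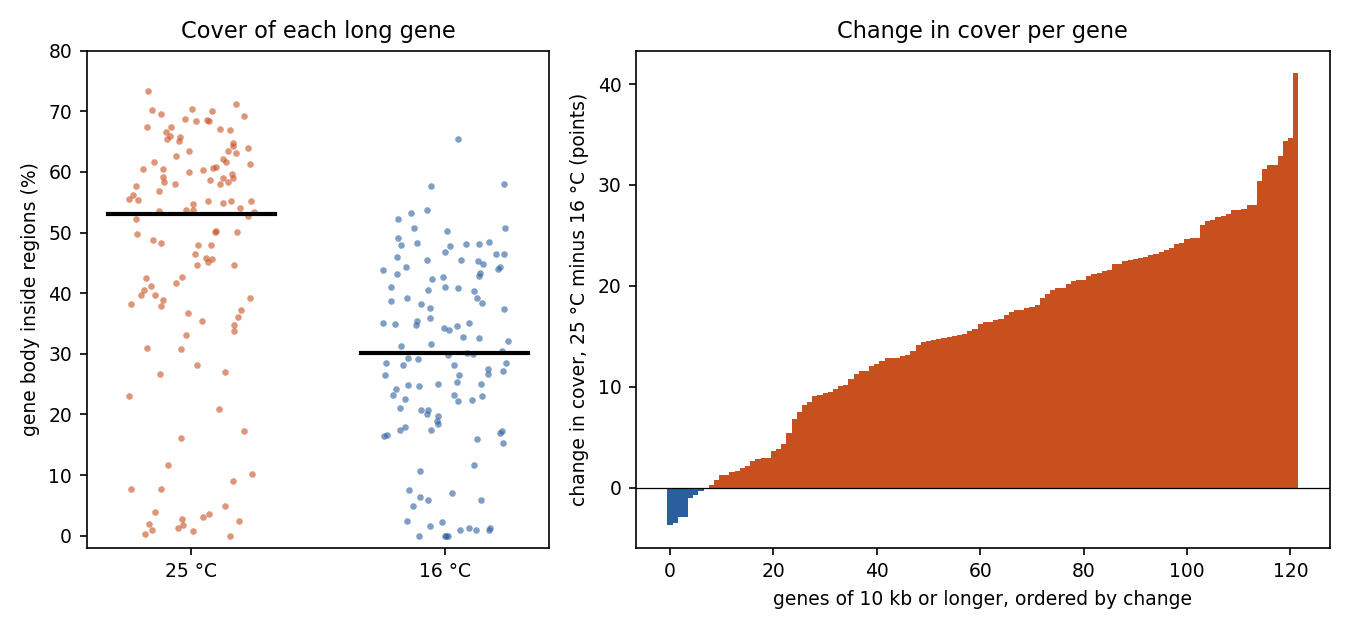
Left, the percent of each long gene inside regions at 25 °C and at 16 °C, where each point is 1 of 122 genes and the bar is the median (53.1% and 30.1%). Right, the change per gene in percentage points, 25 °C minus 16 °C, in order of size; 114 bars lie above 0 and 7 below.

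Cover was higher at 25 °C in 114 of the 122 genes, lower in 7 and equal in 1. The median change was 16.3 percentage points (14.5 to 18.8), with the middle of the genes between 9.45 and 22.7 points, whereas genes of 5 to 10 kb had a median change of 9.82 points. By the rule of at least 1.5 times the covered bases and at least 100 bp more, 69 of the 121 long genes with a region in either list were called higher at 25 °C, 57.0%, beside a background of 37.3% of all genes of at least 1000 bp with a region and 43.2% of those of 5 to 10 kb. By the same rule in the other direction 3 were called lower, 2.48%, beside 7.39% of all genes and 3.73% of those of 5 to 10 kb. All 3 (GSL09, XIA and AT5G40450) had a cover below 10% in both lists. With a call at 2 times in place of 1.5 times, 22 long genes were called higher, 18.2%, which is below the background of 22.3% of all genes and close to the 17.6% of genes of 5 to 10 kb. Called higher at both settings were also AT2G34100, XID, GSL04, CALS5, TIL2, GMI1, CalS7 and AT3G60961, all below 10% cover in both lists. Their calls rest on 110 to 820 covered bp per gene at 25 °C. The call depends on the number of bases, which grows with gene length. The nuclear share of the signal moved the same way (ratio 1.14), and its part in the higher cover was not tested. With the 25 °C regions below a height of 205.0, the lowest height raised by that ratio, left out, 66 genes were called higher and the median cover at 25 °C was 52.5%, although the widths of the regions that stayed were as called.

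The genes with the largest gains, among those overlapping no other gene, worked in different processes. AT5G23110, a RING zinc finger protein, had a cover of 66.0% at 25 °C and 24.9% at 16 °C, with 25 and 28 regions. NRPC2, the second-largest subunit of RNA polymerase III, had 56.9% and 22.2%, with 17 and 14 regions. SPI, a BEACH domain protein that shapes trichomes and other epidermal cells, had 62.1% at 25 °C and 29.3% at 16 °C. Its regions were fewer at 25 °C, 13 against 20, and wider, with the widest at 2020 bp against 520 bp. The other 3 were AT4G17140, a pleckstrin homology domain protein (52.7% and 20.7%), AT2G25730, a FYVE zinc finger protein (66.5% and 34.6%), and GCT, the Mediator subunit MED13 (70.0% and 38.4%). In GCT the regions numbered 8 at 25 °C and 16 at 16 °C. Across the 122 genes, 55 had more regions at 25 °C, 60 had fewer and 7 had as many, and 55 genes had fewer regions together with a higher cover.

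Of the 7 genes with a lower cover at 25 °C, 4 were below 10% in both lists. POK1, a kinesin that guides the plane of cell division, had a cover of 23.0% at 25 °C and 26.5% at 16 °C, whereas its relative POK2 had 30.9% and 16.0%. XIA, a myosin XI, had 1.94% at 25 °C and 4.84% at 16 °C. GSL09, a glucan synthase-like gene, had 0.257% and 1.22%. The largest difference downwards among all 122 was in AT2G34110, an uncharacterized gene that overlaps others, with 11.6% at 25 °C and 15.3% at 16 °C. The same genes were high in both lists (Spearman 0.875 over the 122 genes, which share the libraries). The gene with the highest cover at 25 °C was MOR1, which organizes microtubules, with 73.3% at 25 °C and 58.1% at 16 °C. DEK1, a calpain needed for the epidermis, was highest at 16 °C, with 68.4% at 25 °C and 65.5% at 16 °C, a difference of 2.94 points. Beside them by mean cover stood AT1G02080 (69.2% and 57.6%), GSL12 (67.4% and 53.8%), EBS1, which checks glycoprotein folding in the endoplasmic reticulum (67.4% and 52.3%), and GRV2, a DnaJ protein of endosomes (71.2% and 46.5%).

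In the 8 longest genes the regions ran from near the start over most of the gene. ATM, the longest at 27265 bp with 79 exons, held 50 regions at 25 °C and 38 at 16 °C, the most of any gene at 25 °C, and a cover of 53.7% and 30.0%. AT1G48090, a calcium-dependent lipid-binding protein of 26499 bp, held 46 and 36 regions and a cover of 63.9% and 40.5%. AT1G67120, which encodes the midasin-like ATPase of ribosome assembly, held 43 and 31 regions and a cover of 42.5% and 19.8%. These 3 genes, with AT4G17140 (38 and 30 regions), had both more regions and more cover at 25 °C. In AT5G24740, a vacuolar protein sorting-associated protein, 36 regions at 25 °C stood against 40 at 16 °C, and the cover was 65.4% against 34.9%. ILA, a HEAT repeat protein related to the translation regulator GCN1, had 21 and 31 regions with 64.7% and 48.3%, and AT2G17930, of the phosphatidylinositol 3- and 4-kinase family, had 23 and 29 with 65.8% and 38.2%. The exception was AT1G58602, an NB-ARC disease resistance gene of 19695 bp with 9 exons and overlapping genes, where 5 and 4 regions covered 2.71% and 2.45%. Its introns include 1 of 7384 bp and 1 of 4420 bp, and the 25 °C list had no covered base in either.

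**Figure D2:**
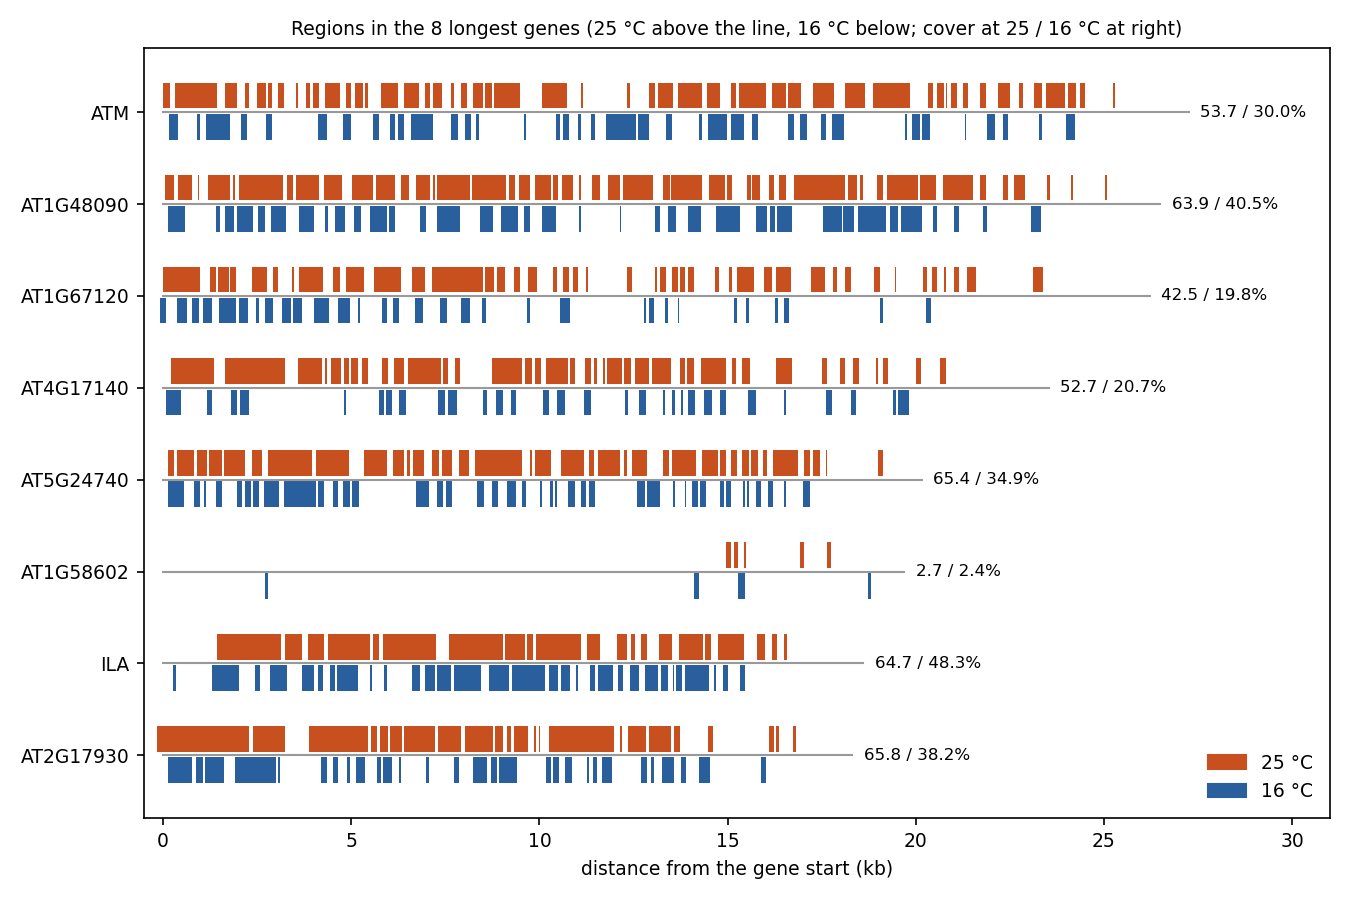
Regions centred in the 8 longest genes, drawn to scale from the gene start (kb), with the 25 °C regions above each line and the 16 °C regions below it, and the cover at 25 °C and 16 °C at the right. Of the 8 genes, AT1G58602 is nearly empty in both lists, and in the other 7 more of the line is filled at 25 °C, with bare ends at the right.

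The extra cover at 25 °C came with wider regions rather than more regions. Members had a median width of 200 bp at 25 °C (190 to 220) and 160 bp at 16 °C (150 to 160). Over 1000 bp wide were 156 members at 25 °C (8.18%), which held 34.0% of the bases inside members, against 34 at 16 °C (1.77%), which held 9.03%. Above 2000 bp there were 25 at 25 °C and 0 at 16 °C. Widths of 200 bp or less, about the size of a single nucleosome with its linker, made up 50.1% of members at 25 °C and 63.0% at 16 °C. Gaps between neighbouring members of a gene had a median of 150 bp at 25 °C (n = 1785) and 220 bp at 16 °C (n = 1798), while the centres of neighbours lay a median of 505 and 475 bp apart. The median height was 327 at 25 °C and 288 at 16 °C, in units of scaled coverage.

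**Figure D3:**
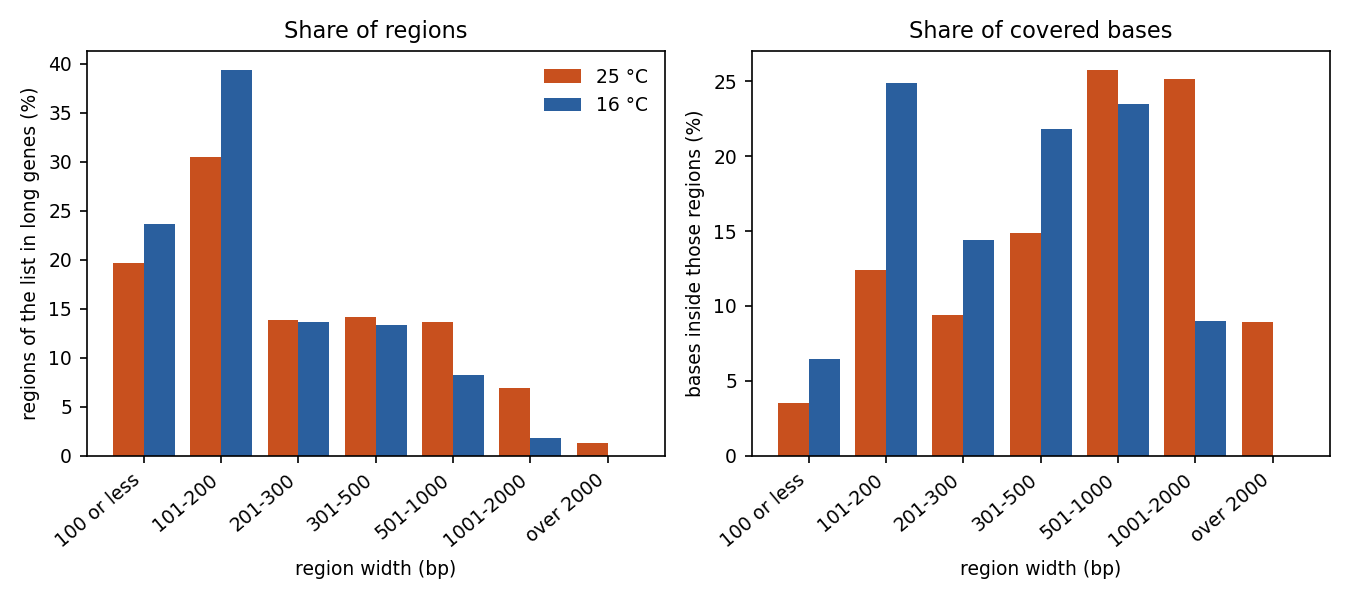
Width classes of the members at 25 °C (left bar of each pair) and at 16 °C (right bar), as percent of members and as percent of the bases inside them. Members over 100 and up to 200 bp were 30.5% at 25 °C and 39.4% at 16 °C, and members over 1000 bp held 34.0% of covered bases at 25 °C and 9.03% at 16 °C.

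Members matched between the lists showed the same in place. Pairs of members that overlapped only each other numbered 522, and 350 were wider at 25 °C, 156 narrower and 16 equal. Of the pairs that differed, 69.2% were wider at 25 °C (65.0 to 73.0%), beside a background of 62.6% over all nuclear pairs. In these pairs 240 bp was the median width at 25 °C against 150 bp at 16 °C, and the median ratio of width was 1.5 against 1.18 over all pairs. The median ratio of height was 1.18 in these pairs and 1.1 over all pairs, beside the ratio of 1.14 of the nuclear shares. Many 25 °C members also lay over several 16 °C regions: 406 (21.3%) overlapped at least 2, with at most 9 under a single member. They made 1061 overlaps in all, in which a 16 °C region under more than 1 member counts for each. In the opposite direction 250 of the 16 °C members (13.0%) overlapped at least 2 regions of the 25 °C list. Outside the long genes these shares were 14.3% and 8.67%.

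The widest 25 °C members lay close to the gene start and over several regions of the 16 °C list. The widest was 3780 bp in AT2G45540, a WD-40 and BEACH domain gene that overlaps another gene, centred 1876 bp from the start over 9 regions of the 16 °C list, where the widest member of that gene was 610 bp. The next were in the neighbouring genes AT3G24870 (3700 bp, over 5 regions) and AT3G24880 (3380 bp, over 6 regions), whose central sequence is printed above. These 2 genes are near copies, and 73.5% of the 50-base words of AT3G24870 occur in AT3G24880, so reads cannot be placed with certainty between them. The tallest 25 °C members were in CHR5, a chromatin remodeller (height 1092), AT4G39420, a spatacsin-like gene (1061), and AT2G45540 (1056). At 16 °C the widest members were in AT1G02080 (1850 bp), AT3G24870 (1830 bp) and SPK1, a guanine exchange factor for ROP GTPases (1600 bp). The tallest were in GLT1, the NADH-dependent glutamate synthase (1054), AT1G02080 (992) and SDG2, a histone H3 lysine 4 methyltransferase (969).

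Along the genes the mark began close to the start, stayed high over several kb and was nearly absent from the last 2 kb, in both lists. In 500 bp steps from the start, cover at 25 °C was 56.9% in the first step, 70.5% from 500 to 1000 bp, 66.7% from 1000 to 1500 bp and 57.7% from 4500 to 5000 bp. At 16 °C the same steps had 53.9%, 56.2%, 42.5% and 37.7%. The lists thus differed by 3.03 points in the first 500 bp and by 24.2 points from 1000 to 1500 bp. Genes of 5 to 10 kb began alike, with 50.7% at 25 °C and 43.2% at 16 °C in the first step. From 4500 to 5000 bp they held 12.3% and 7.36%, where the long genes still had 57.7% and 37.7%. In the shorter genes that step can lie at the gene end, so the contrast depends on gene length. Counted from the gene end, the step from 4500 to 5000 bp held 55.3% and 41.2% in genes of 5 to 10 kb. The long genes had 48.8% and 28.6% there. Divided into 5 equal parts from the start to 500 bp before the end, the long genes had median covers of 74.8, 69.4, 59.2, 41.3 and 6.48% at 25 °C, against 51.9, 40.6, 30.4, 20.6 and 3.26% at 16 °C. The 25 °C list was higher in each of the 5 parts.

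**Figure D4:**
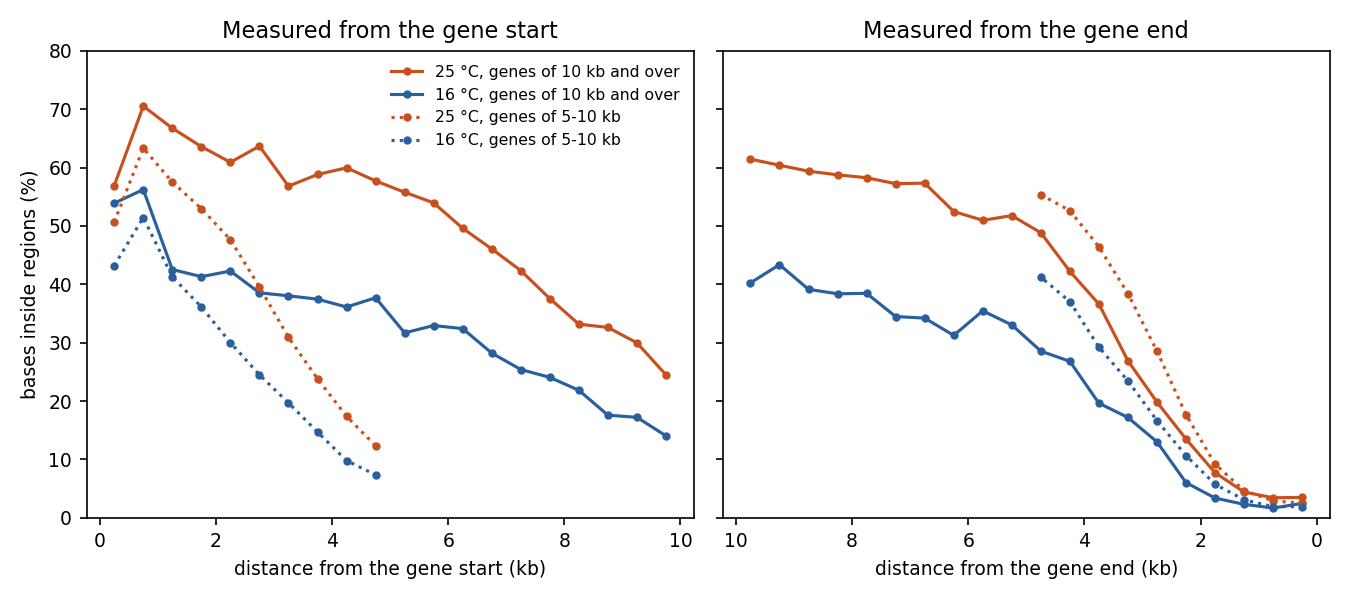
Percent of bases inside regions in steps of 500 bp, measured from the gene start (left) and from the gene end (right, distance falling to 0), in genes of 10 kb or more (solid) and of 5 to 10 kb (dotted), at 25 °C (orange) and 16 °C (blue). In the long genes cover stays above 50% up to 6 kb from the start at 25 °C, and in the last 1 kb before the gene end all 4 lines lie below 5%.

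Measured from the gene end, the bare stretch had its highest medians in bp, and its lowest as a share of the gene, in the long genes. In the long genes with a cover of at least 10%, the last region stopped a median of 1904.5 bp before the gene end at 25 °C (1581 to 2175, 106 genes) and 2457.5 bp at 16 °C (2141 to 2657, 104 genes). In genes of 5 to 10 kb these medians were 1788.5 bp at 25 °C and 2010.5 bp at 16 °C. Their intervals overlapped those of the long genes at 25 °C (1725 to 1845) but not at 16 °C (1935 to 2106). In genes of 2 to 5 kb they were 1118 bp and 1266 bp. As a share of the gene the medians were 13.1% at 25 °C and 16.9% at 16 °C in the long genes, 28.1% and 31.7% in genes of 5 to 10 kb, and 39.7% and 44.7% in genes of 2 to 5 kb. The bare end was shorter at 25 °C in 68 of the 104 long genes with at least 10% cover in both lists, longer in 35 and equal in 1. It spanned 0 to 4032 bp at 25 °C and 0 to 5813 bp at 16 °C, and regions of a neighbouring or overlapping gene can shorten it. In AT1G67120 the last region ended 2833 bp before the gene end at 25 °C and 5813 bp at 16 °C. In ATM these distances were 1963 and 3033 bp. In the last 500 bp of the genes, cover was 3.50% at 25 °C and 2.47% at 16 °C, from bases that the choice of members left out.

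Members near the start were wider and taller than those far from it. In the first 2000 bp, which make up 16.0% of the gene bodies, lay 14.9% of the 25 °C members (13.4 to 16.6%) and 17.5% of the 16 °C members (15.9 to 19.3%). They had a median width of 325 bp at 25 °C against 220 bp at 16 °C, with median heights of 405 and 335. Beyond 10 kb lay 17.9% of the 25 °C members and 13.99% of the 16 °C members, with median widths of 150 and 140 bp and median heights of 290 and 268. From 2 to 5 kb the 25 °C list had fewer members per 10 kb, 13.0 against 15.9, and their median width was 260 bp against 160 bp. From 5 to 10 kb it had 13.3 against 12.1 per 10 kb, with 180 bp against 150 bp. Members over 1000 bp were 19.7% of those in the first 2000 bp at 25 °C and 6.25% at 16 °C, and beyond 10 kb 2.64% and 0%.

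By annotated family, most groups were covered over much of their length, while several callose synthases and myosins were nearly bare. The 9 chromatin remodellers and modifiers had a median cover of 58.4% at 25 °C and 40.8% at 16 °C, and none was below 48.3% at 25 °C. Among them are the near copies AT3G24870 and AT3G24880, between which reads cannot be placed with certainty. SYD, a SWI/SNF ATPase, had 58.4% at 25 °C and 39.2% at 16 °C with 19 and 23 regions, CHR5 had 63.5% and 35.98%, and SDG2 had 60.7% and 43.1%. Of these 9 genes, 3 were called higher at 25 °C, 33.3%, beside 57.0% of the long genes and the background of 37.3% of all genes. The 11 genes of transcription and RNA processing had medians of 56.9% and 28.4%, and 8 of 11 were called higher, beside 69 of the 121 long genes. Among them THO2, of the complex that exports mRNA, had 61.6% and 40.3%, and AT5G61140, a U5 snRNP helicase, had 45.7% and 22.6%. The 6 kinases of the PIK-related and phosphatidylinositol group had medians of 59.7% and 34.1%, with TOR, which couples nutrients to growth, at 68.4% and 48.2%, and ATR, a checkpoint kinase, lowest at 17.3% and 7.59%.

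**Figure D5:**
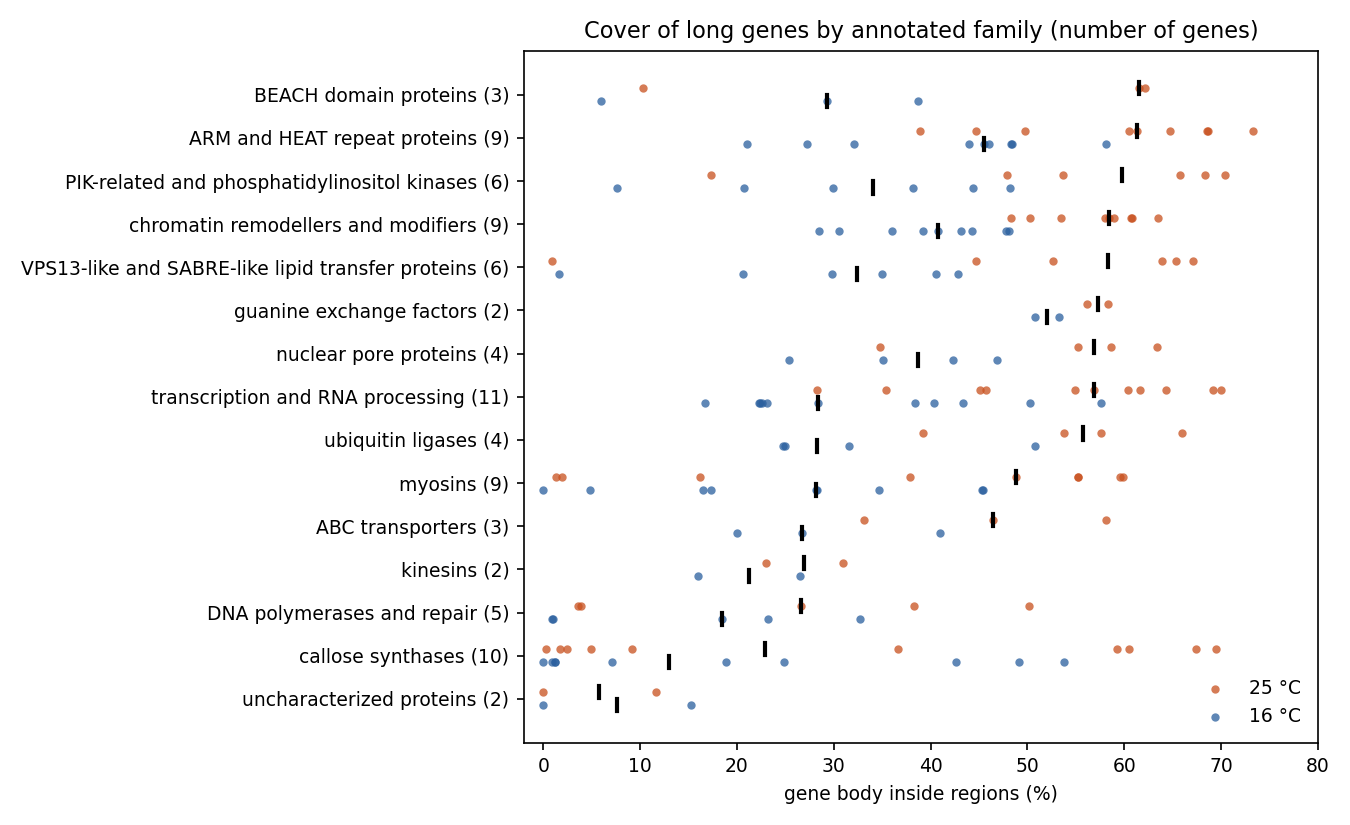
Cover of each long gene by annotated family, with 25 °C in orange above 16 °C in blue, 1 point per gene and a black bar at the median; numbers of genes in brackets. Chromatin remodellers and modifiers, which include the near copies AT3G24870 and AT3G24880, lie close together, from 48.3 to 63.5% at 25 °C. Callose synthases are spread from 0.257 to 69.5%.

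The 9 ARM and HEAT repeat proteins had medians of 61.3% at 25 °C and 45.5% at 16 °C, with SWEETIE, named for its role in sugar metabolism, at 68.7% and 44.0%. The 4 nuclear pore proteins had 56.9% and 38.7%. Of these, EMB3142 had 63.4% and 46.8%, and NUA, the anchor of the pore basket, had 55.2% and 42.3%. The 4 ubiquitin ligases had 55.7% and 28.2%, with EMB2771 at 39.2% and 24.7%. The 2 guanine exchange factors differed by a median of 5.22 points, with SPK1 at 56.2% and 53.2% and ATMIN7, an ARF-GEF of immunity, at 58.3% and 50.8%. The 6 lipid transfer proteins of the VPS13 and SABRE kind had medians of 58.3% and 32.4%, the 3 BEACH proteins 61.6% and 29.3%, and the 3 ABC transporters 46.5% and 26.7%, with ABCA1 at 46.5% and 26.7% and ABCC1 at 58.1% and 41.0%. The 5 genes grouped as DNA polymerases and repair, which include the separase gene ESP, had medians of 26.7% and 18.5%. Both medians are the values of ESP itself, and the group ranged from 3.55 to 50.2% at 25 °C.

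Among the 10 callose synthases, which make the cell wall polymer callose, 5 had less than 10% cover in both lists and the others up to 69.5%. GSL8, which acts in cell plates, had 69.5% at 25 °C and 42.7% at 16 °C, and GSL10 had 60.5% and 49.2%. The sparsely covered members were GSL09, GSL04 (1.70% and 0%), CALS5, which serves the pollen wall (2.42% and 0.865%), CalS7, which serves sieve plates (4.93% and 1.23%), and GSL11 (9.10% and 7.11%). The 9 myosins ranged as widely, from XI-I (59.6% and 45.4%) and XIK (59.9% and 45.3%) to XIA and XID (1.27% and 0%). Related pairs of genes could differ too, as these values, picked after they were seen, show. ACC1, the acetyl-CoA carboxylase of the cytosol, had 52.3% at 25 °C and 29.2% at 16 °C, and ACC2, its neighbour, had 7.75% and 6.43%, and 0.611% of the 50-base words of ACC1 occur in ACC2. TIL1, the catalytic subunit of DNA polymerase epsilon, had 38.3% and 23.2%, with 37 and 24 regions, and its relative TIL2 had 3.55% and 0.867%, with 5 and 2.

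Below 10% in both lists stood 16 of the 122 genes, a group set by its values. Besides those named above (AT1G58602, GSL09, GSL04, CALS5, CalS7, GSL11, XIA, XID, ACC2 and TIL2) it held AT5G49680, a SABRE-like gene (0.918% and 1.58%), GMI1, induced by DNA breaks (3.86% and 1.01%), AT5G40450 (3.07% and 5.96%), AT3G60961 (7.66% and 2.24%), AT2G34100 (0.817% and 0%) and AT1G39070. The last, an uncharacterized gene of 12459 bp, was the 1 long gene with no member in either list. SAB, the related gene of AT5G49680, had 67.1% at 25 °C and 42.9% at 16 °C. In 3 of the 122 gene models a single intron took up most of the gene, AT2G34100 (11356 bp), AT3G60961 (10234 bp) and AT2G34110 (9724 bp), and each of these genes overlaps other genes. In the other 106 genes the median cover was 55.2% at 25 °C and 34.0% at 16 °C.

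Most members of each list overlapped a region of the other list. Of the 25 °C members, 64.2% overlapped a region of the 16 °C list (62.0 to 66.3%), beside a background of 51.0% over all nuclear regions. Of the 16 °C members, 83.3% overlapped a region of the 25 °C list (81.6 to 84.9%), beside 64.4%. The 25 °C list covered 46.5% of the gene bodies and the 16 °C list 29.9%. The share differed with width, and of the 25 °C members of 100 bp or less 29.1% were overlapped, of those over 300 and up to 1000 bp 88.5%, and of those over 1000 bp all 156. At 16 °C the same classes had 63.8%, 98.5% and all 34. Nuclear regions outside the long genes had 18.4%, 91.1% and 99.9% in these classes at 25 °C, and 34.2%, 97.8% and 100% at 16 °C. Widths of 100 bp or less made up 19.6% of the 25 °C members and 28.8% of the 25 °C regions outside the long genes. The part of width in the higher overlap of members was not tested. When overlap had to reach 50% of both regions, 15.8% of the 25 °C members and 15.9% of the 16 °C members were matched.

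Members lay over coding sequence and introns in about the proportion of the gene at 25 °C, and somewhat more often in introns at 16 °C. Of the 25 °C members 50.8% were centred in coding sequence (48.6 to 53.1%) and 46.3% in introns (44.1 to 48.6%), and of the 16 °C members 48.0% (45.8 to 50.3%) and 49.4% (47.1 to 51.6%). Coding sequence made up 50.7% of the gene bodies and introns 45.5%, inside the 25 °C intervals and outside the 16 °C intervals. By bases, 46.5% of coding sequence and 46.9% of intron sequence was covered at 25 °C, against 28.7% and 30.8% at 16 °C. The 5′ UTR bases differed less between the lists, with 44.3% and 41.0%. Introns from 200 to under 500 bp (n = 824) had 52.1% of their bases in regions at 25 °C and 34.1% at 16 °C, more than those under 100 bp (42.8% and 28.3%) or of 500 bp and more (39.4% and 26.2%). Of the 3869 introns, 1168 lay wholly inside regions at 25 °C (30.2%) and 597 at 16 °C (15.4%). Windows of 150 bp at the centres of members had a mean GC content of 38.2% (SD 4.77) at 25 °C and 38.2% (SD 4.68) at 16 °C, against 38.4% (SD 5.72) in windows free of regions in both lists, which lie within 1 SD of each other. The letters GAAGAA, on either strand, occurred in 20.3% of the windows at 25 °C members and 21.7% at 16 °C members. They occurred in 23.5% of the windows free of regions in both lists and in 21.7% of all windows of that length in these genes.

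The study compared the mark with genes that changed their splicing or expression after the same temperature change. Of its differentially spliced (DiS) genes, listed for any time point, 7 are 10 kb or longer, 5.74% of the long genes (95% Wilson interval 2.81 to 11.4%) against 1.76% of all genes. Cover was higher at 25 °C in all 7, as it was in 104 of the 109 long genes in neither list. They were AT5G24740 (65.4% at 25 °C and 34.9% at 16 °C), AT1G58602 (2.71% and 2.45%), SYD (58.4% and 39.2%), AT4G38760, a nucleoporin (58.6% and 35.1%), MYA2, a myosin (55.2% and 28.2%), NUDT22 (53.5% and 33.9%) and XIH, a myosin (37.9% and 17.3%). Of these, 5 were called higher at 25 °C, as were 63 of the 109 long genes in neither list, beside the background of 37.3% of all genes. Only AT1G58602, MYA2 and XIH were listed for day 1, the day of the 25 °C regions, and 2 of these 3 were called higher. The genes listed as differentially expressed after 1 day included 6 long ones, 4.92% of the long genes against 4.54% of all genes. Their cover ranged from 0.918% and 1.58% in AT5G49680 to 60.4% and 50.3% in AT3G11964, annotated as RIBOSOMAL RNA PROCESSING 5. Cover was higher at 25 °C in 1 of the 3 listed with higher expression and in 2 of the 3 listed with lower expression. POK1 and AT5G40450, both with a lower cover at 25 °C, were listed with higher expression, as was POK2, with a higher cover. With 7 and 6 genes and no replicate values, no test was made.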

How the data were processed

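The authors mapped the H3K36me3 ChIP-seq reads to TAIR10. The aligner was Bowtie2 per the submitters' processing notes but Bowtie per the methods, with its version not given in the sources used here. The authors called regions with the Dpeak function of DANPOS2, extending reads to 150 bp, and deposited 1 pooled list per temperature. In these lists the deposited height is a signal, the highest scaled coverage in a region, and a deposited −log10 p-value belongs to each height. The deposited coordinates are in steps of 10 bp. Use of the total H3 samples as a background is not stated, and they were not analysed here. The sources do not give read depth, so precision per region is unknown.

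Members and gene lists were chosen with earlier results of these data known. Genes, exons and product names came from RefSeq TAIR10.1, and every nuclear region ended within its chromosome lengths. A base coding in any transcript counted as coding. Organelle shares were taken from the summed signal of organelle regions against the total implied by the Poisson mean behind the lowest p-value of a list. Overlap needed 1 bp, and one-to-one pairs overlap only each other. Named genes were the 8 longest, the 6 with most members, the 6 with highest mean cover, the 6 with largest gains and the 6 with largest falls (genes overlapping no other), those with the 3 widest or 3 tallest members of each list, those without a member, those the study names, and the 2 longest of each family. Of the genes named as falls only POK1, XIA and GSL09 had a lower cover at 25 °C, and AT1G39070, XID and ACC2 filled the rule with changes of 0, 1.27 and 1.32 points. Other genes were named after their values were seen. Since no replicate values were at hand, no test was run. Code for cover, region counts, members and one-to-one pairs was tested on simulated regions. The code for the intervals was not part of that check. Python 3.11.15, numpy 2.4.6, pandas 2.3.3, scipy 1.17.1 and matplotlib 3.10.9 were used.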

Additional observations from a re-analysis of the deposited data

Results flagged for a closer look

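The organelle regions lie outside every comparison above and carry a large signal. Chloroplast regions held 26.4% of the signal implied by the 25 °C list and 35.2% of that implied by the 16 °C list. No control sample for this signal was analysed, and the values are given without an explanation.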

How the results depend on the processing

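No paired analysis was possible because each temperature has 1 pooled list, and for the same reason no replicate could be left out. Over 12 alternatives, 99 of 141 values stayed within the interval of the reported value (counts within 1.5 times) and 42 moved, and the cause of a move was not tested. The raised calling level, and an equal number of nuclear regions (the tallest of each list), left the 16 °C list unchanged. Values that rest on the 16 °C list alone could only stay there, and they are counted among the 99. The direction between the lists changed only for the share of long genes with a region, under the first setting below. With regions above the median −log10 p of each list alone, 91.0% of long genes at 25 °C and 91.8% at 16 °C held a region, the median cover was 44.1% and 24.2%, the first 2000 bp held 17.9% and 21.2% of members, the median height was 414 and 354, the median width 350 and 250 bp, and 74.0% of pairs were wider at 25 °C. Without regions under 100 bp the median width was 260 and 200 bp, the height 362 and 315, and 86.7% of 16 °C members were overlapped. With a gene length minimum of 15000 bp, all genes (100%) held a region, the cover was 61.9% and 36.2%, and the median change 23.6 points. Of the 22 genes with a region, 16 were called higher and 1 lower. There the first 2000 bp held 9.32% and 10.8% of members, and 67.4% and 87.6% of members were overlapped. The 25 °C height and width were 343 and 240 bp. With a minimum of 8000 bp, 139 of 286 genes with a region were called higher and 5 lower, and the first 2000 bp held 17.9% and 22.9%. Among genes overlapping no other gene, 44 of 79 were called higher and 85.4% of 16 °C members were overlapped. These counts stand beside 69 of 121 in the main setting and 37.3% of all genes of at least 1000 bp with a region. With a call at 2 times, 22 genes (18.2%) were higher, beside 22.3% of all genes. With the raised calling level the 25 °C height was 337 and 66.3% of 25 °C members were overlapped. The first 1000 bp held 7.08% and 8.25% of members, and a reciprocal overlap of 50% left 15.8% and 15.9% matched. Read depth per sample is unknown, so small or low regions cannot be judged.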
